A study of Homo sapiens with 13 samples.

Results

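The 10 genes described here are transcription factors of the epithelial-mesenchymal transition (EMT) and the adhesion and cytoskeletal genes by which that transition is usually read. They are SNAI1, SNAI2, ZEB1, ZEB2, TWIST1, GRHL2, CDH1, CDH2, VIM and EPCAM, taken by symbol from the 62703 genes in both count tables, and all 10 were found. The question was whether the factors and the adhesion genes change in the directions usually linked to each other.

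The data are RNA sequencing counts of 13 libraries. They come from 2 established human lines of ovarian carcinoma, SKOV3 and OVCAR3, both from ascites. SKOV3 cells carried a control vector, overexpressed RSF1, or overexpressed RSF1delUAB, with 3 libraries each and no treatment named in the labels. RSF1 is a histone chaperone that binds ubiquitinated histone H2A through its UAB region, and RSF1delUAB is named for the loss of that region. OVCAR3 cells expressed a scrambled control or the UAB peptide, with 2 libraries each, and both groups had received 2000 ng/mL doxycycline for 6 days. The promoters that drive the constructs, and whether a line is a clone or a pool, are not stated in the labels, nor whether replicates were separate cultures. All p-values therefore measure only the spread between these libraries, which may be technical.

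In an EMT, epithelial cells lose E-cadherin (CDH1) and gain N-cadherin (CDH2), an exchange known as the cadherin switch. SNAI1, SNAI2, ZEB1, ZEB2 and TWIST1 are known to repress epithelial genes, and all bind E-box sequences. GRHL2 activates epithelial genes and is known to oppose ZEB1. The microRNAs of the miR-200 family and miR-205 repress ZEB1 and ZEB2, and ZEB factors in turn repress the miR-200 genes.

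The miR-200 family is shown because its seeds, bases 2 to 8 from the 5′ end, are what pairs with ZEB1 and ZEB2 messages. The mature sequences are from RefSeq (GRCh38.p14), 5′ to 3′, with the seed in capitals. The first 3 below share a seed, the next 2 share another, and miR-205 has its own.
miR-200b-3p: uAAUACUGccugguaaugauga
miR-200c-3p: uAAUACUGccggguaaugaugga
miR-429: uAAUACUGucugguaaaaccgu
miR-200a-3p: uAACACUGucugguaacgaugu
miR-141-3p: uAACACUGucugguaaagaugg
miR-205-5p: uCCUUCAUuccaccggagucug

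The match to the first seed, CAGTATT, was sought in the longest 3′ UTR of each gene in GENCODE 29, on the message strand. It occurs 6 times in the 2549 bases of ZEB1 and 5 times in the 5370 bases of ZEB2. Of 19128 genes, 16.02% have at least 1 match, 0.0157% have as many as ZEB1 and 0.0366% have as many as ZEB2. The match to the second seed, CAGTGTT, occurs 3 times in ZEB1 and 4 times in ZEB2, where 18.34% of genes have at least 1. The match to the miR-205 seed, ATGAAGG, occurs once in ZEB1 and 0 times in ZEB2, against 11.73% of genes. None of the 3 matches is in the 3′ UTR used for SNAI1, TWIST1, CDH2 or VIM, which are shorter (830, 706, 1187 and 322 bases). The shares of genes are not adjusted for the length of the 3′ UTR. SNAI2 was not among the genes looked up. A match is a description of the letters and was not tested as a site. Examples follow in a window of 30 bases, 5′ to 3′, with the seed match in capitals and its position counted from the first base of the 3′ UTR.
ZEB1, 369 to 375: tgttttatcttatCAGTATTatcactctta
ZEB1, 1243 to 1249: gatttttacctatCAGTATTattttatttc
ZEB2, 455 to 461: cactacaatgcatCAGTATTatgattcctc
ZEB2, 1029 to 1035: atactgtagtgtaCAGTATTatagttcttc
ZEB1, 1533 to 1539: agatttgatttaaCAGTGTTatgttaacat
ZEB2, 734 to 740: tgccatccttgtaCAGTGTTaagagggtaa

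In SKOV3 the total count of a library lay between 15194678 and 18748009, in OVCAR3 between 18160558 and 24026993. RSF1 itself, read as a check of the labels, was higher than control by 4.03 log2 units with RSF1 and 3.47 with RSF1delUAB (edgeR adjusted p = 1.96e-18 and 1.09e-17). In OVCAR3 it differed by 0.11 (adjusted p = 0.724), so it does not check those labels. Replicate 1 of RSF1 stood apart from its group. The chi-square per degree of freedom of its counts against replicates 2 and 3 was 12.7 and 14.4, beside 3.63 between those 2 and 2.2 to 3.22 for pairs of the other SKOV3 groups. The OVCAR3 pairs were at 13.4 and 11.5, and with 2 libraries a group neither can be said to be the one apart. The values of RSF1 are therefore also given without its replicate 1. All 7 ovarian carcinoma line markers had counts in each group, except that MUC16 was at 0 in the RSF1delUAB libraries. MUC16 had only 3 counts over the control and 4 over the RSF1 libraries, and WT1 had 9 over the control libraries. Below, CPM are counts scaled to the TMM-adjusted library size of each line, and per-length levels are RPKM, such values divided by gene length in kilobases, on 1 TMM scale over all 13 libraries. The 7 markers summed to 9160 to 9900 CPM in control, 3770 to 4360 CPM in RSF1 and 8640 to 9160 CPM in RSF1delUAB libraries. ERBB2 made up most of each SKOV3 sum. In OVCAR3 the sums were 7590 to 7620 CPM with the scrambled control and 7880 to 8350 CPM with the UAB peptide. Means are given ± SD, over n = 3 libraries for a group of SKOV3 and n = 2 for one of OVCAR3.

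The per-length levels ordered the 10 genes very differently in the 2 lines. In SKOV3 with control vector VIM was highest, at 266.5 ± 8.72, and was gene 84 of all genes by level. SNAI2 followed at 35.4 ± 0.777 and TWIST1 at 12.1 ± 0.919. ZEB1 (5.33 ± 0.255), CDH2 (5.27 ± 0.387) and EPCAM came next, and neighbours among these 3 overlapped between libraries. SNAI1 stood at 0.675 ± 0.198 and ZEB2 at 0.182 ± 0.0513. CDH1 (0.0430 ± 0.0289) and GRHL2 (0.00360 ± 0.00623) were last, with 12 and 1 counts in all over the 3 libraries. Gene length here is that of all annotated exons, 26151 bases for ZEB2, so a gene with many annotated exons gets a low per-length level.

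In OVCAR3 with the scrambled control EPCAM was highest, at 121 in both libraries, gene 243 by level. CDH1 followed at 31.9 ± 1.06, then GRHL2 at 16.1 ± 2.36 and TWIST1 at 13.2 ± 2.90, and these last 2 overlapped. SNAI1 stood at 4.68 ± 0.246. CDH2 (1.47 ± 0.527) and VIM (0.927 ± 0.340) overlapped as well. ZEB2 was at 0.0321 ± 0.0134, and ZEB1 and SNAI2 had 0 counts in both libraries. The order thus ran from epithelial genes to mesenchymal genes, with TWIST1 and SNAI1 in the middle.

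**Figure D1:**
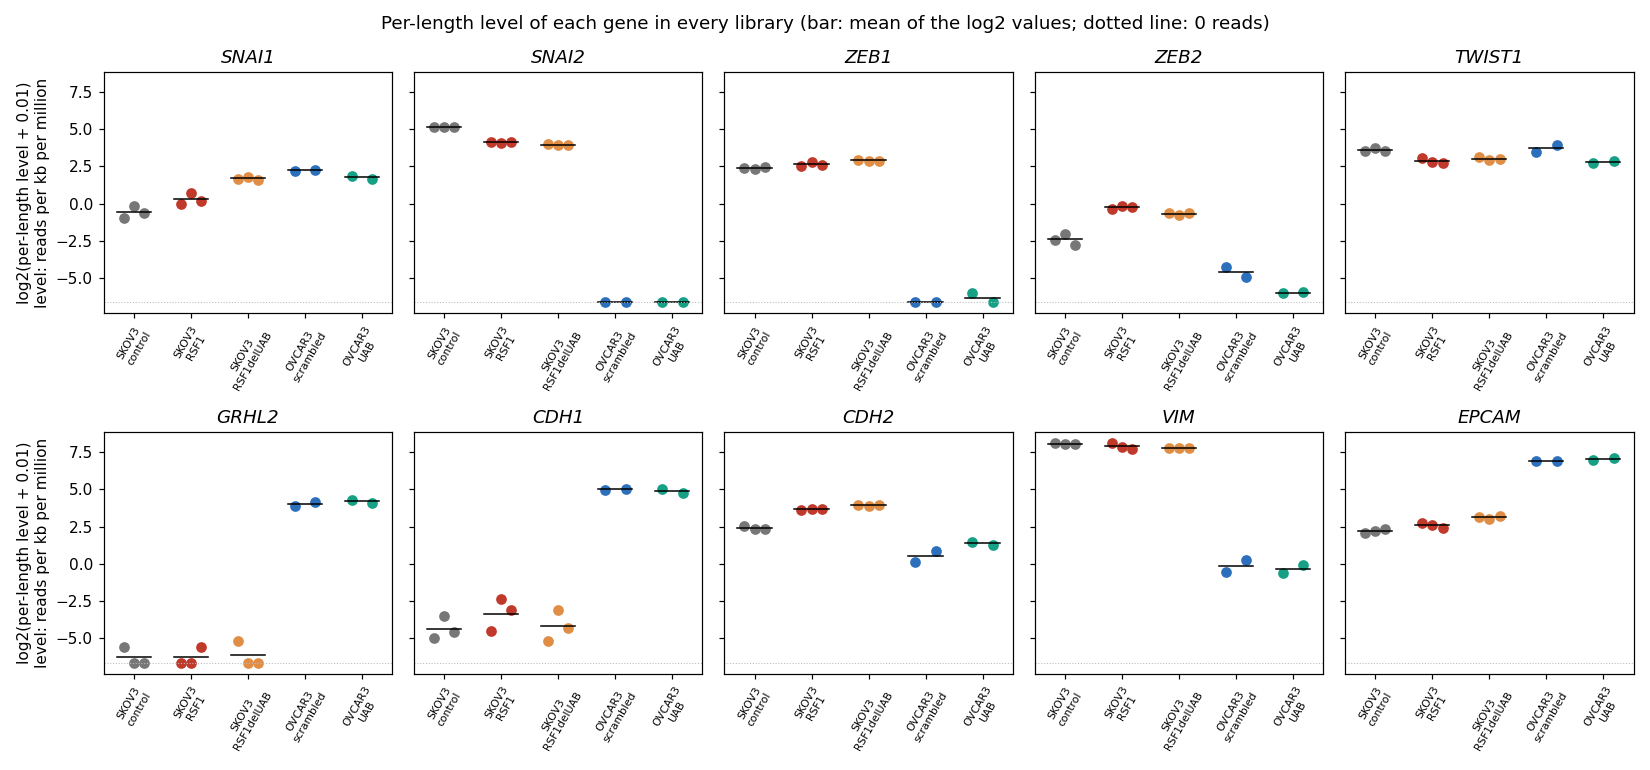
Each panel plots 1 gene, with the log2 of its per-length level (with 0.01 added) on the y axis and the 5 groups on the x axis; points are libraries, bars are means of the log2 values, and the dotted line marks 0 reads. SNAI2, ZEB1, ZEB2, CDH2 and VIM are higher in SKOV3 control than in OVCAR3 scrambled libraries, GRHL2, CDH1, EPCAM and SNAI1 are lower, and TWIST1 overlaps.

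The OVCAR3 scrambled and SKOV3 control libraries were compared in 1 fit over all 13 libraries, to put a size on these differences. The line, the vector and doxycycline differ together here and cannot be told apart. The labels do not state whether the library batch differed as well, and it could not be told apart either. RSF1 itself was higher by 3.83 log2 units in the OVCAR3 scrambled libraries. Of the 10 genes, 4 were higher in OVCAR3, 5 lower and 1 did not pass, beside 76.5% of 19946 tested genes that passed in either direction, 40.6% higher and 36.0% lower. Their median log2 fold change was -0.86, beside 0.08 over all genes tested. In these and all other bulk values, fewer cells of a type and less RNA per cell cannot be told apart.

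Of the repressors, SNAI2 (ENSG00000019549, chromosome 8, 48917598 to 48921740, minus strand) had 5353 counts in SKOV3 control and 0 in OVCAR3 scrambled libraries, at least 1840-fold lower. ZEB1 (ENSG00000148516, chromosome 10, 31318495 to 31529814, plus strand) had 2123 and 0 counts, at least 731-fold lower. Both bounds take 3 counts over the group in place of 0 and cover counting error only. Coordinates are those of the deposited tables, on GRCh38, and counts cover a gene's exons. ZEB2 (ENSG00000169554, chromosome 2, 144364364 to 144521057, minus strand) was lower by a log2 fold change of -2.49 (SE 0.27, adjusted p = 2.26e-08). SNAI1 (ENSG00000124216, chromosome 20, 49982980 to 49988886, plus strand) went the other way and was higher in OVCAR3, by 2.79 (SE 0.24, adjusted p = 7.19e-10). TWIST1 (ENSG00000122691, chromosome 7, 19020991 to 19117636, minus strand) differed by 0.12 (95% interval -0.16 to 0.40, adjusted p = 0.419), and its groups overlapped. The line with abundant CDH1 thus had more SNAI1 than the other, while SNAI2, ZEB1 and ZEB2 were lower or at 0.

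GRHL2 and the adhesion genes differed too. GRHL2 (ENSG00000083307, chromosome 8, 101492439 to 101669726, plus strand) had 4642 counts in OVCAR3 scrambled and 1 in SKOV3 control libraries, a ratio of 4490 (95% counting interval 806 to 177000). CDH1 (ENSG00000039068, chromosome 16, 68737292 to 68835537, plus strand) was higher by 9.50 log2 units (SE 0.25, adjusted p = 5.23e-19), from 12 to 9235 counts. EPCAM, an epithelial surface glycoprotein (ENSG00000119888, chromosome 2, 47345158 to 47387601, plus strand), was higher by 4.71 (SE 0.10, adjusted p = 2.03e-20). VIM, the intermediate filament protein vimentin (ENSG00000026025, chromosome 10, 17228241 to 17237593, plus strand), was lower by a log2 fold change of -8.17 (SE 0.18, adjusted p = 3.52e-20). CDH2 (ENSG00000170558, chromosome 18, 27932879 to 28177946, minus strand) was lower by -1.84 (SE 0.15, adjusted p = 1.33e-10). The 2 groups did not overlap for these 5 genes, and the share of all genes without overlap was not counted. The 44 other tested genes within 5 Mb of TWIST1 had a median log2 fold change of 1.69 and the 43 around VIM one of -1.16.

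The host transcripts of miR-200c with miR-141 (MIR200CHG) and of miR-205 (MIR205HG) followed the same division by line. MIR200CHG had 0 counts in all 9 SKOV3 libraries, 8 and 34 in the scrambled and 9 and 20 in the UAB peptide libraries. MIR205HG had 94 and 118 counts in the scrambled and 113 and 84 in the UAB peptide libraries, and 0 in SKOV3 but for 1 count in RSF1delUAB replicate 3. Poly-A counts per gene do not measure the mature miRNAs printed above.

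The balance of the cadherins was read in each library as the log2 per-length level of CDH1 minus that of CDH2, with 0.1 added to each. It was 4.39 ± 0.45 in scrambled and 3.46 ± 0.00 in UAB peptide libraries of OVCAR3. In SKOV3 it was -5.25 ± 0.37 with control vector, -6.0 ± 0.49 with RSF1 and -6.68 ± 0.43 with RSF1delUAB. The sign divided the lines, and within SKOV3 the values of neighbouring groups overlapped. CDH1 lies so close to 0 in SKOV3 that the added 0.1 sets the size of these values.

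**Figure D2:**
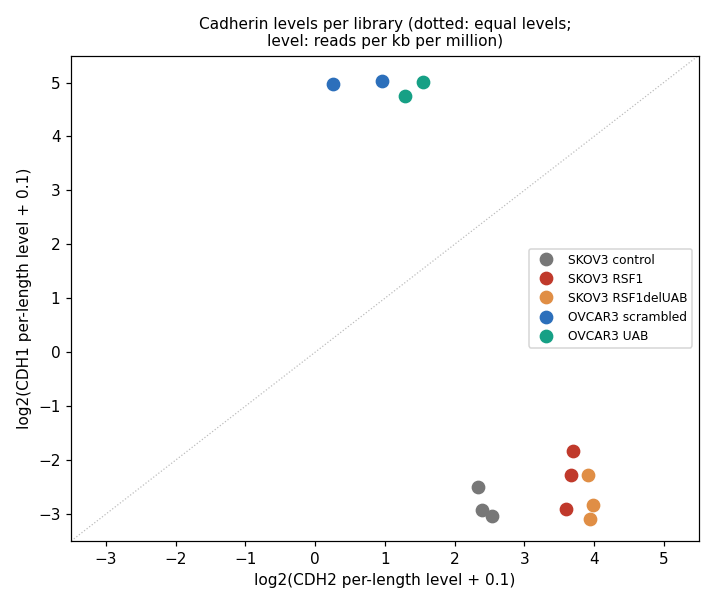
Each point is 1 library, with the log2 of the CDH2 per-length level plus 0.1 on the x axis and that of CDH1 on the y axis; colours mark the 5 groups and the dotted line marks equal levels. All 4 OVCAR3 libraries lie above the line and all 9 SKOV3 libraries below it, with the SKOV3 control libraries furthest left among the latter.

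RSF1 was then compared with control vector in SKOV3. N-cadherin and ZEB2 rose, and SNAI1 and EPCAM rose by less. SNAI2, TWIST1 and vimentin fell, and ZEB1 and E-cadherin did not pass the test. Of 9 tested genes 4 were higher and 3 lower, beside 67.3% of 16735 tested genes that passed in either direction, 34.3% higher and 32.9% lower. Their median log2 fold change was 0.34, beside 0.02 over all genes. Without RSF1 replicate 1, 5 were higher and 3 lower, beside 34.1% and 33.1% of all genes. The log2 fold changes were then -1.08 for SNAI2, -0.89 for TWIST1, 2.19 for ZEB2, 0.95 for SNAI1, 1.23 for CDH2 and -0.30 for VIM, all past the test, while ZEB1 and CDH1 gained the call and EPCAM lost it, as given at each gene. GRHL2, with 1 count in each group, was not tested. With RSF1delUAB 5 were higher and 3 lower, beside 66.6% in either direction (34.5% higher, 32.1% lower), ZEB1 joining those that rose, and their median was 0.46 beside 0.02. Both comparisons use the same 3 control libraries, so their values are given side by side and their likeness is not counted as a result.

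Among the factors, SNAI2 had the largest loss. Its levels were 119, 114 and 119 CPM in the control, 57.2, 54.9 and 56.4 CPM in the RSF1 and 50.3, 50.2 and 49.2 CPM in the RSF1delUAB libraries. All 6 overexpressing libraries lay below every control library, with log2 fold changes of -1.06 for RSF1 (SE 0.07, adjusted p = 1.71e-11) and -1.23 (SE 0.07, adjusted p = 1.78e-12) for RSF1delUAB. SNAI2 still remained the most abundant of the repressors per length, at 17.5 ± 0.456 and 15.4 ± 0.233.

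TWIST1, a basic helix-loop-helix factor, also fell. It stood at 23.6, 26.5 and 23.2 CPM in the control, 16.6, 13.3 and 13.01 CPM in the RSF1 and 17.2, 14.7 and 16.02 CPM in the RSF1delUAB libraries. The control libraries lay above all others, and the log2 fold changes were -0.77 for RSF1 (SE 0.11, adjusted p = 4.18e-06) and -0.61 for RSF1delUAB (adjusted p = 5.5e-05).

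ZEB2 rose the most of the factors with RSF1. Its libraries were at 4.63, 6.24 and 3.55 CPM in the control, 19.6, 22.4 and 21.5 CPM with RSF1, and 16.1, 14.9 and 16.5 CPM with RSF1delUAB. The 3 groups did not overlap, and the log2 fold changes were 2.14 (SE 0.15, adjusted p = 9.67e-11) and 1.72 (adjusted p = 3.39e-09). Even so its per-length level with RSF1, 0.828 ± 0.0525, was below that of ZEB1 in each SKOV3 library.

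ZEB1 moved little. It was at 46.5, 44.3 and 48.7 CPM in the control, 48.5, 57.7 and 51.1 CPM with RSF1 and 65.6, 63.2 and 63.3 CPM with RSF1delUAB. RSF1 libraries overlapped the control, with a log2 fold change of 0.17 (95% interval 0.01 to 0.34, adjusted p = 0.0577), while all RSF1delUAB libraries lay above it, at 0.46 (adjusted p = 2.58e-05). The RSF1 value lies at the threshold, since other scalings or leaving out 1 of several libraries took it past, with an adjusted p of 0.0476 under RLE scaling and 0.0064 (log2 fold change 0.23) without RSF1 replicate 1.

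SNAI1 was scarce and rose. It had 13, 23 and 17 counts in the control, 25, 42 and 29 with RSF1 and 98, 101 and 83 with RSF1delUAB. The log2 fold change was 0.81 for RSF1 (SE 0.29, adjusted p = 0.0177) and 2.21 for RSF1delUAB (SE 0.25, adjusted p = 1.74e-07), and no groups overlapped. The RSF1 call was lost without RSF1 replicate 2 (0.59, adjusted p = 0.107) or control replicate 1 (0.64, adjusted p = 0.0816).

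N-cadherin rose in both. CDH2 was at 49.6, 43.0 and 44.3 CPM in the control, 100.5, 109 and 106 CPM with RSF1, and 129, 127 and 133 CPM with RSF1delUAB. The 3 groups stood clear of each other, with log2 fold changes of 1.20 (SE 0.07, adjusted p = 1.19e-11) and 1.51 (SE 0.07, adjusted p = 3.43e-13). The 34 other tested genes that start within 5 Mb of CDH2 had median log2 fold changes of -0.34 and -0.66, the opposite sign. Over the 9 SKOV3 libraries genes whose log2 CPM were most like those of CDH2, among 10117 genes, included SPINT1 (Pearson r 0.999) and CNOT6 (0.997). For ZEB1 the most alike were EDIL3 (0.976), ZNF676 (0.973) and PCMTD1 (0.972). These libraries share 3 group means, so such values are a description.

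E-cadherin had few reads in SKOV3. CDH1 had 2, 7 and 3 counts in the control, 3, 17 and 10 with RSF1 and 2, 11 and 4 with RSF1delUAB, and all groups overlapped. The log2 fold changes were 1.25 for RSF1 (95% interval -0.19 to 2.7, adjusted p = 0.116) and 0.30 for RSF1delUAB (-1.29 to 1.89, adjusted p = 0.742). Without RSF1 replicate 1 the former was 1.67 (adjusted p = 0.0233), so 1 library decides that call. The 121 other tested genes that start within 5 Mb of CDH1 had median log2 fold changes of 0.46 and 0.37, the same sign. The most alike genes, ADAT1 (r 0.840), UBR1 (0.838) and POLR1HASP (0.829), were less like CDH1 than those above were like CDH2.

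EPCAM, epithelial like CDH1, rose. Its libraries stood at 10.4, 11.1 and 12.4 CPM in the control, 15.9, 14.4 and 12.8 CPM with RSF1 and 21.1, 19.6 and 21.9 CPM with RSF1delUAB. The groups did not overlap, though the lowest RSF1 library was just above the highest control. RSF1 gave a log2 fold change of 0.34 (SE 0.12, adjusted p = 0.014) and RSF1delUAB one of 0.88 (adjusted p = 7.93e-07). The RSF1 call was lost without RSF1 replicate 1 (0.26, adjusted p = 0.0623) or control replicate 1 (0.29, adjusted p = 0.0664).

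VIM fell slightly. It stood at 1448, 1377 and 1351 CPM in the control, 1392, 1176 and 1078 CPM with RSF1 and 1115, 1114 and 1122 CPM with RSF1delUAB. RSF1 replicate 1 lay within the control range, and the RSF1delUAB libraries all lay below it. The log2 fold changes were -0.20 (SE 0.07, adjusted p = 0.021) and -0.32 (SE 0.07, adjusted p = 0.000616). The 42 other tested genes that start within 5 Mb of VIM had median log2 fold changes of -0.04 and -0.31. The latter is close to that of VIM itself, and whether VIM moved with its region was not tested. The RSF1 call was lost under scaling by library totals (-0.14, adjusted p = 0.0919) and without RSF1 replicate 2 or 3 or control replicate 1, where adjusted p was 0.0933, 0.173 and 0.0995.

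Read together, the factors and the adhesion genes did not move in 1 direction in SKOV3. Of the mesenchymal genes CDH2 rose and VIM fell, and of the repressors ZEB2 and SNAI1 rose while SNAI2 and TWIST1 fell. EPCAM rose beside CDH2, and CDH1 did not pass the test.

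**Figure D3:**
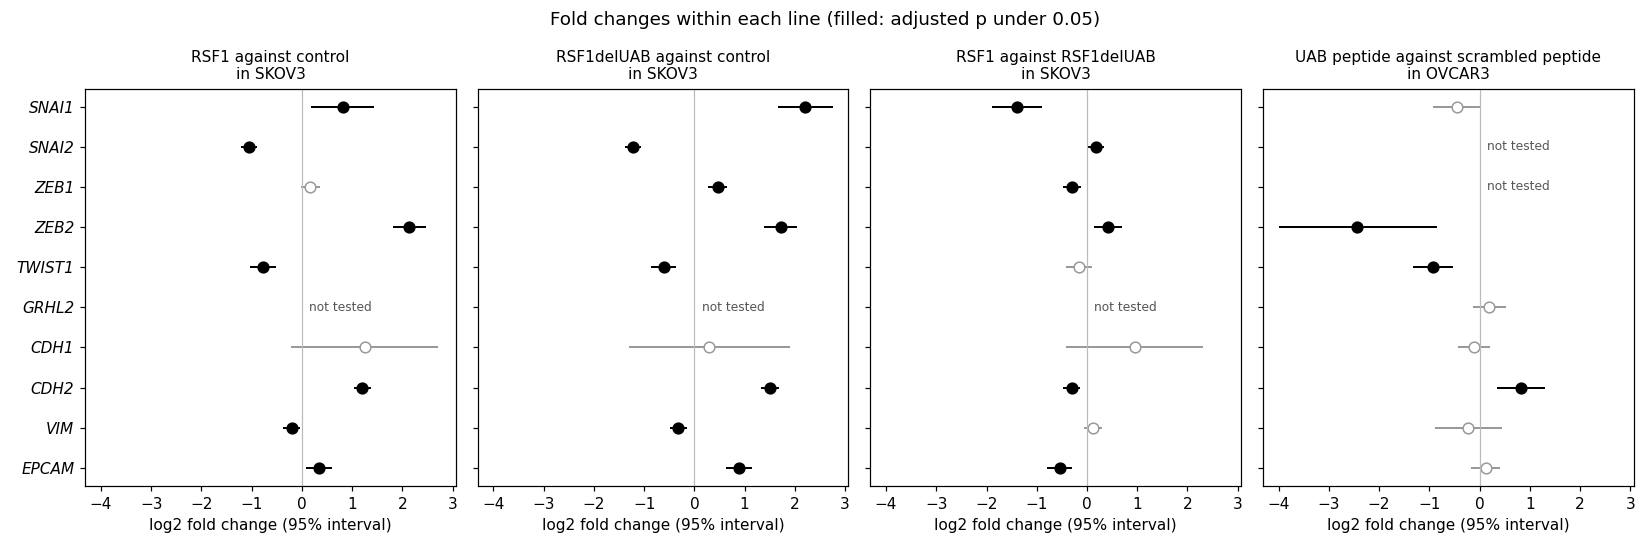
Each panel is 1 comparison within a line, with the log2 fold change of each gene on the x axis, its 95% interval as a line, and filled points where the edgeR adjusted p is under 0.05. Both overexpression panels place ZEB2, SNAI1, CDH2 and EPCAM to the right and SNAI2, TWIST1 and VIM to the left of 0, and the UAB peptide panel has TWIST1 and ZEB2 to the left and CDH2 to the right.

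RSF1 was next set against RSF1delUAB, to ask what the UAB region adds. The cells with full RSF1 had less SNAI1, ZEB1, CDH2 and EPCAM and more ZEB2 and SNAI2. Of 9 tested genes 2 were higher and 4 lower, beside 38.6% of all tested genes in either direction, 18.5% higher and 20.2% lower. Their median log2 fold change was -0.16, beside 0.00 over all genes. Without RSF1 replicate 1, 1 was higher and 4 lower, beside 19.5% and 21.4% of all genes, with SNAI2 at 0.16 (adjusted p = 0.0612) the call that was lost. SNAI1 (-1.26), EPCAM (-0.62), ZEB2 (0.47), CDH2 (-0.27) and ZEB1 (-0.24) passed without that library too.

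Among the genes that passed, SNAI1 had the largest difference, -1.40 (SE 0.23, adjusted p = 5.72e-05), followed by EPCAM at -0.54 (SE 0.11, adjusted p = 0.000508). ZEB2 was higher by 0.42 (SE 0.12, adjusted p = 0.0112), CDH2 lower at -0.30 (SE 0.07, adjusted p = 0.00151) and ZEB1 lower at -0.29 (SE 0.08, adjusted p = 0.0051). None of these 5 overlapped between the groups, but they were picked by the test. The share of all genes without overlap was not counted. SNAI2 was higher by 0.17 (adjusted p = 0.0498), a call lost under DESeq2 (0.0509), with no count filter (0.165), with a replicate block (0.0779) and without 5 of the 6 libraries in turn. ZEB2 lost its call without RSF1delUAB replicate 2 (0.38, adjusted p = 0.0516).

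TWIST1 (-0.16, 95% interval -0.40 to 0.08), CDH1 (0.95, -0.40 to 2.30) and VIM (0.12, -0.03 to 0.27) did not pass, with adjusted p of 0.289, 0.265 and 0.196. Without RSF1 replicate 3 VIM was higher by 0.20 (adjusted p = 0.0235). RSF1 itself was higher by 0.56 in these RSF1 libraries, so the construct's level and its UAB region differ together and cannot be told apart.

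In OVCAR3 the UAB peptide was compared with the scrambled control. N-cadherin rose and TWIST1 fell, ZEB2 fell from an already low level, and the epithelial genes did not pass the test. Of 8 tested genes 1 was higher and 2 lower, beside 10.9% of 18359 tested genes in either direction, 5.45% higher and 5.46% lower. Their median log2 fold change was -0.16, beside 0.01. SNAI2 (0 counts in all 4 libraries) and ZEB1 (1 count, in UAB peptide replicate 1) were not tested. With 2 libraries a group, the fit recovered 57.8% of simulated 2-fold changes and 25.8% of 1.5-fold changes in this comparison. The simulation changed only 66 genes by 1.5-fold, 64 by 2-fold and 64 by 4-fold among 17859. This share is far below that called in the data, so recovery in the data may differ.

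TWIST1 stood at 22.8 and 31.2 CPM with the scrambled control and 13.5 and 14.8 CPM with the UAB peptide. Both UAB libraries lay below, with a log2 fold change of -0.93 (SE 0.18, adjusted p = 0.00359). CDH2 was at 9.62 and 16.2 CPM against 24.8 and 20.7 CPM, without overlap. It rose by 0.82 (SE 0.21, adjusted p = 0.0239), a call lost without scrambled replicate 1 (0.49, adjusted p = 0.196). ZEB2 had 26 and 14 counts against 3 and 3, a log2 fold change of -2.43 (SE 0.73, adjusted p = 0.0452). The ZEB2 call was lost without any 1 of the 4 libraries (adjusted p 0.0673 to 0.488), under library totals (0.0536) and under DESeq2 (0.123).

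CDH1 was at 194 and 203 CPM with the scrambled control and 199.7 and 168 CPM with the UAB peptide, overlapping groups with a log2 fold change of -0.11 (95% interval -0.40 to 0.18, adjusted p = 0.672). GRHL2 stood at 89.5 and 110 CPM against 122 and 105 CPM (0.19, -0.12 to 0.50, adjusted p = 0.456). EPCAM differed by 0.12 (-0.15 to 0.39, adjusted p = 0.622), VIM by -0.22 (-0.87 to 0.43, adjusted p = 0.718) and SNAI1 by -0.45 (-0.91 to 0.00, adjusted p = 0.201). The widest of these intervals is that of VIM, a gene with 69 to 143 counts per OVCAR3 library.

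Other genes of the EMT programme were read from lists, with up to 2 risen and 2 fallen genes named for each by smallest adjusted p. Where a pair of values is given for SKOV3, RSF1 comes first and RSF1delUAB second, both against control and in log2 units. The shares of all tested genes that passed, against which each count is to be read, were 34.3% higher and 32.9% lower for RSF1 and 34.5% higher and 32.1% lower for RSF1delUAB, with a median of 0.02 for each. Of 14 epithelial transcription and splicing regulators, 10 were tested in SKOV3. With RSF1 5 rose and 4 fell (median 0.84) and with RSF1delUAB 5 rose and 4 fell (median 0.66), beside 34.3% and 32.9%, and 34.5% and 32.1%, of all genes. EHF, an epithelial ETS factor, rose by 4.68 and 4.06 (adjusted p = 1.46e-16 and 1.7e-15), while KLF5 fell (-1.96 and -1.31), as did KLF4 (-1.78 and -1.88). FOXA2 rose by 4.07 and 2.25 (adjusted p = 1.29e-08 and 0.000242) and the splicing regulator ESRP2 by 4.18 and 4.22 (adjusted p = 1.65e-08 and 1.25e-08). Both started near 0, with 10 counts each over the control libraries. FOXA2 reached 179 and 56 counts and ESRP2 193 and 220. Between OVCAR3 scrambled and SKOV3 control 11 of 14 were higher and the other 3 did not pass, beside 40.6% of all genes higher and 36.0% lower, and ESRP1 had 7925 counts against 0. With the UAB peptide 1 of 13 rose, EHF by 0.71 (adjusted p = 0.0209), and 1 fell, OVOL1 by 1.61 (adjusted p = 0.00122), beside 5.45% of all genes higher and 5.46% lower.

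Of 15 other EMT-associated factors 13 were tested in SKOV3. With RSF1 1 rose and 8 fell (median -0.51), and with RSF1delUAB 4 rose and 8 fell (median -0.66), beside 34.3% and 34.5% of all genes higher and 32.9% and 32.1% lower. FOXQ1 fell (-2.54 and -2.87), as did FOXC1 (-1.42 and -1.59), while SOX4 rose by 0.51 and 1.84, a difference of -1.33 between RSF1 and RSF1delUAB (adjusted p = 3.11e-12). In OVCAR3 2 of 12 rose with the UAB peptide (TCF4 by 0.77, TCF12 by 0.52) and 3 fell, among them FOXC1 (-1.23), beside 5.45% of all genes higher and 5.46% lower. Of 10 corepressors that SNAI and ZEB factors recruit, 2 rose and 4 fell with RSF1 and 3 rose and 5 fell with RSF1delUAB, beside the same 34.3% and 34.5% higher and 32.9% and 32.1% lower. CTBP1, a partner of ZEB factors, fell, at -0.86 and -1.19 (adjusted p = 6e-10 and 4.57e-12).

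Of 13 other cadherins and catenins 10 were tested in SKOV3, of which 4 rose and 2 fell with RSF1 and 6 rose and 2 fell with RSF1delUAB. Of all genes tested 34.3% and 34.5% rose and 32.9% and 32.1% fell. Plakoglobin (JUP) rose by 1.34 and 1.91, CDH24 by 2.10 and 2.05, and CDH13 fell, at -2.03 and -2.44. With the UAB peptide 1 of 10 rose, CTNND2 by 1.78 (adjusted p = 0.000347), and 2 fell, CDH16 (-3.93) and CTNNA2 (-0.77), beside 5.45% of all genes higher and 5.46% lower. CDH16 was scarce, with 96 counts over the scrambled and 5 over the UAB peptide libraries. Of 20 tested epithelial polarity and surface genes 7 rose and 8 fell with RSF1 (median -0.01), and 11 rose and 6 fell with RSF1delUAB (median 0.57), beside those same shares and a median of 0.02 over all genes. MAL2, a membrane trafficking protein, fell, at -3.22 and -3.11. LLGL2 did not pass with RSF1 (-0.04) and rose by 1.38 with RSF1delUAB. In OVCAR3 scrambled against SKOV3 control 21 of 23 of these genes were higher and 1, DSP, was lower at -0.97, beside 40.6% of all genes higher and 36.0% lower. With the UAB peptide 2 of 23 passed and both fell, among them MUC1 (-0.86), beside 5.46% of all genes lower. Between RSF1 and RSF1delUAB 5 of 20 were higher and 9 lower, beside 18.5% of all genes higher and 20.2% lower, among them AP1M2 at 1.82, LLGL2 at -1.42 and the tight junction gene OCLN at -0.86.

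Of 13 tested mesenchymal effector genes 10 rose and 2 fell in SKOV3 with RSF1 (median 1.46), and 9 rose and 2 fell with RSF1delUAB (median 1.91). The shares over all genes were 34.3% and 34.5% higher and 32.9% and 32.1% lower, with a median of 0.02 for each. LOX, a collagen cross-linking enzyme, rose by 3.14 and 2.22 and FSTL1 by 2.17 and 1.91. S100A4 fell (-2.04 and -2.39), as did the receptor kinase AXL (-0.18 and -1.20). Between RSF1 and RSF1delUAB TAGLN, an actin-binding protein, was higher by 2.18, and the matrix protein SPARC was lower at -2.80 (adjusted p = 2.56e-11 and 4.1e-12). Of this list COL1A1, COL1A2, COL3A1, THY1 and PDGFRB are also fibroblast markers. The 9 fibroblast markers summed to 6.42 to 8.23 CPM in control, 124 to 132 CPM in RSF1 and 121 to 133 CPM in RSF1delUAB libraries. Of their 7 tested members, 7 rose with RSF1, and 5 rose and 1 fell with RSF1delUAB. PDGFRB was at 0 counts in the control and RSF1delUAB groups and POSTN in the RSF1delUAB group. Their part in the result was not tested. Immune markers summed to at most 1.79 CPM in any SKOV3 library, with CD3E and MS4A1 at 0. Endothelial markers summed to 5.36 to 7.63 CPM in control, 0.699 to 1.01 CPM in RSF1 and 0.678 to 0.924 CPM in RSF1delUAB libraries, with CDH5 at 0 in the control group.

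In OVCAR3 2 of 12 mesenchymal effectors rose with the UAB peptide, SPARC by 2.97 (adjusted p = 5.92e-07) and AXL by 1.26, and 2 fell, COL1A2 (-1.37) and S100A4 (-0.56), beside 5.45% of all genes higher and 5.46% lower. The fibroblast markers summed to 50.4 to 51.5 CPM with the scrambled control and 46.7 to 60 CPM with the peptide, where LUM was at 0. The 7 immune markers summed to 10 to 11.4 CPM with the scrambled control and 4.12 to 5.89 CPM with the peptide, with CD68 and MS4A1 at 0 in both groups, and 1 of 3 tested fell. The 5 endothelial markers summed to 11.7 to 14.3 CPM and 16.6 to 22.7 CPM, and 1 of 2 tested rose. Neither sum overlapped between the groups, and their part in the result was not tested.

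Of 12 genes of TGF-beta signalling, a known EMT signal, 4 rose and 6 fell with each construct, beside 34.3% and 34.5% of all genes higher and 32.9% and 32.1% lower. The list holds ligands, receptors and SMADs, but also SMAD7, SKI and SKIL, which restrain the signal. SMAD7 (-0.34 and -0.40) and SKI (-0.42 and -0.50) were among those that fell. TGFB2 rose by 2.65 and 0.78 (adjusted p = 2.32e-08 and 0.0294) and TGFB1 by 0.62 and 1.17 (adjusted p = 5.32e-07 and 4.17e-11). SMAD2 fell, at -1.16 and -1.02. SMAD3 rose by 0.67 with RSF1 and fell by 1.14 with RSF1delUAB, a difference of 1.81 between them (SE 0.08, adjusted p = 7.88e-13). With the UAB peptide 1 of 12 rose, TGFB2 by 2.34 (SE 0.21, adjusted p = 7.94e-06), and 2 fell, TGFB1 (-0.71) and SMAD7 (-0.72), beside 5.45% of all genes higher and 5.46% lower.

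Without RSF1 replicate 1, an alternative added after seeing the data, the lists gave these counts for RSF1 against control. They are to be read beside 34.1% of all genes tested that were then higher and 33.1% lower. Of the mesenchymal effectors 9 of 13 rose and 2 fell, and of the fibroblast markers 6 of 7 rose. Of the epithelial regulators 5 of 11 rose and 5 fell, and of the polarity and surface genes 8 of 21 rose and 8 fell, with a median of 0.13 in place of -0.01. Corepressors had 3 risen and 4 fallen of 10. The counts of the other EMT-associated factors, of the cadherins and catenins and of the TGF-beta genes were as above. Against RSF1delUAB 5 of 21 polarity and surface genes were higher and 7 lower, beside 19.5% of all genes higher and 21.4% lower.

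Promoters were searched for the E-box CAGGTG, with its reverse complement CACCTG, in the 250 bases before each start in RefSeq's table (GRCh38.p14). Entries were found for ZEB1, ZEB2, CDH2 and VIM, with 11 windows in all, of which 2, both of ZEB1, held the motif. Of 35116 windows 17.5% held it.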

How the data were processed

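Poly-A RNA was sequenced in 13 libraries. For each line the authors deposited 1 table of raw counts, whole numbers of reads per gene without normalization. The submitters' processing notes name FastQC, STAR 2.7.9a and Subread, and list GRCh38, hg38 and GRCm38 as builds. Which annotation release and strand setting were used is not given in the sources used here, so genes that overlap others, as ZEB1, ZEB2 and VIM overlap antisense genes, are uncertain. A record split over 3 lines (ANK2) was rejoined. GENCODE 29 holds 58279 of the genes, and 58264 of these overlap their position there on GRCh38.

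The labels gave the groups. In the column name taken for OVCAR3 control replicate 2, 1 letter is not explained by any label. The lines were fitted separately in R 4.3.3 with edgeR 4.0.16, which uses limma 3.58.1, by a two-sided quasi-likelihood test after filterByExpr (minimum count 10) and TMM scaling, with Benjamini-Hochberg adjustment over all genes tested, at a threshold of 0.05. All 13 libraries entered 1 further fit for the comparison of the lines. The biological coefficient of variation was 0.0734 in SKOV3 (6 residual degrees of freedom), 0.124 in OVCAR3 (2) and 0.0894 in the joint fit (8). Fold changes used a prior count of 0.125. A change given as a rise or fall without another unit is in log2 units.

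The members and gene lists were chosen with earlier results of these data known. The text names all 10 members, up to 2 risen and 2 fallen genes per list and comparison, and the 3 genes most alike to CDH1, CDH2 and ZEB1 with a mean log2 CPM of at least 2; some genes that this rule takes are not reported here. On simulated data the fit recovered 64.6%, 86.4% and 98.4% of changes of 1.5, 2 and 4-fold for RSF1 against control (16279 genes), where 5.26% of calls were unchanged genes. Only 65, 66 and 64 genes were changed at these folds, a far smaller share than was called in the data. These rates may therefore not hold for the data. All replicate pairs differed beyond sampling noise, RSF1 replicate 1 the most among SKOV3 libraries. Alternatives were other scalings, DESeq2 1.42.0, other count filters, a replicate block, other pseudocounts and each library left out; list counts without RSF1 replicate 1 were added after seeing the data.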

Additional observations from a re-analysis of the deposited data

How the results depend on the processing

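Over the alternatives run, verdicts on single genes stayed the same in 92 cases for RSF1 against control, with 8 calls lost and 7 gained. For RSF1delUAB against control 105 stayed and 1 turned sign. For RSF1 against RSF1delUAB 96 stayed, 9 were lost and 1 gained, for the UAB peptide 78 stayed, 7 were lost and 3 turned sign, and for OVCAR3 against SKOV3 119 stayed and 1 turned sign. No gene that turned sign had passed the test. With 1 library left out, CDH1 for RSF1delUAB ranged from -0.01 (without control replicate 1) to 0.96. For the UAB peptide VIM ranged from -0.55 to 0.21, turning positive at 0.05 without UAB replicate 1 and 0.21 without scrambled replicate 2, and CDH1 ranged from -0.24 to 0.01 (without UAB replicate 2). TWIST1 between the lines ranged from -0.11 (without scrambled replicate 2) to 0.33.

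Of the 10 genes, 9 were tested in SKOV3 and 8 in OVCAR3 in the main fits. The number higher with RSF1 ranged from 2 to 5 when 1 library was left out, with 2 without control replicate 1. Over all genes tested, the number higher with RSF1 then ranged from 5522 to 5900. The number of the 10 genes higher in RSF1 than in RSF1delUAB was 1 under DESeq2, with no count filter and with the replicate block. It ranged from 0 to 2 when 1 library was left out, with 0 without RSF1delUAB replicate 2, beside 2577 to 3374 over all genes tested. For the UAB peptide the number lower was 1 under library totals and DESeq2 and from 1 to 1 when 1 library was left out, and the number higher ranged from 0 to 1, with 0 without scrambled replicate 1. All genes called higher there ranged from 633, without scrambled replicate 1, to 1194. Leaving out an OVCAR3 library leaves 1 in its group, which is assumed to vary like the other group. The causes were not tested, beyond the fewer samples.

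The cadherin balance moved with the pseudocount. With 0.01 it was -6.77 in SKOV3 control, -6.99 with RSF1, -8.13 with RSF1delUAB and 3.51 with the UAB peptide. With 1 it was -2.59, -3.61, -3.95 and 3.09, and 3.75 with the scrambled control.

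Over all genes, same-numbered libraries did not deviate together in SKOV3 (correlations of -0.042 to 0.071 over 9 pairs). Single genes can depart from this, as CDH1 was highest in replicate 2 and lowest in replicate 1 of every SKOV3 group. Whether same-numbered libraries share a step of the work is not stated in the labels. The replicate block gave 5668 genes higher and 5496 lower with RSF1. In OVCAR3 the correlation was -0.149, and a crossed pairing chosen after seeing the data gave 2560 genes higher and 2537 lower, against 1001 and 1003. Low counts limit CDH1 and SNAI1 in SKOV3 and ZEB2 in OVCAR3.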

Other observations

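OVOL2, an epithelial zinc-finger repressor known to oppose ZEB1, was chosen after its values were seen. In SKOV3 it had 259 counts over the control libraries, 8 over the RSF1 and 16 over the RSF1delUAB libraries. The log2 fold changes were -4.99 (SE 0.43, adjusted p = 3.18e-09 by edgeR) and -4.17 (SE 0.38, adjusted p = 6.83e-09), and RSF1 against RSF1delUAB gave -0.82 (adjusted p = 0.383). With the UAB peptide in OVCAR3 it was -0.39 (adjusted p = 0.117).

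ZEB1-AS1, which overlaps ZEB1 on the other strand, stood at 3.18 ± 0.649 CPM in the control, 5.23 ± 0.555 CPM in the RSF1 and 4.70 ± 0.524 CPM in the RSF1delUAB libraries (n = 3 each), with log2 fold changes of 0.72 (adjusted p = 0.00303) and 0.56 (adjusted p = 0.0164) by edgeR. It had 36 counts over the OVCAR3 scrambled libraries, where ZEB1 had 0. Without a stated strand setting, reads of the overlapping stretch cannot be assigned to either gene.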
